A study of Caenorhabditis elegans with 4 samples.

Results

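The LIN-53 binding sites of chromosome IV in late embryos of the nematode Caenorhabditis elegans were taken as every peak of the combined list that is placed on chromosome IV, 222 of 1221 peaks in all. The peaks come from chromatin immunoprecipitation followed by sequencing (ChIP-seq), in which DNA bound by a protein is recovered with an antibody and read. All samples were wild-type N2 hermaphrodites, as embryos grown at 20 °C, with no mutation and no treatment that differs between samples. There were 2 LIN-53 ChIP samples, made with the affinity-purified rabbit polyclonal antibody SDQ2370, and 2 input samples, for which no peak list was used here. Whole embryos were used, so the cell types that carry a site cannot be told apart, and the peak lists hold nothing that checks the stage. Nothing in the labels says that the ChIP samples came from separate cultures, and what differs between them may be technical.

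LIN-53 belongs to the family of WD-repeat proteins that bind histones and that include the mammalian retinoblastoma-binding proteins. Several chromatin complexes share it as a subunit. They include the DRM complex, which represses transcription, and the NuRD complex, which remodels nucleosomes and removes acetyl groups from histones. Worm autosomes have a centre with many conserved, widely used genes and little meiotic crossing over, and 2 arms that are richer in repeats and cross over more often. Chromosome IV carries most of the worm's piRNA genes, which make small RNAs that guide silencing in the germ line. Genes and sequences under the peaks are not analysed here, since the peaks are placed on the WormBase build WS220 and no genome or annotation of that build was at hand.

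Chromosome IV carried 12.7 combined peaks per Mb over a called span of 17.46 Mb, counted from base 1 to the last base in any peak. The 222 peaks covered 421.5 kb, or 2.41% of the span. Replicate 1 had 191 peaks on IV, covering 296.8 kb, and replicate 2 had 166, covering 281.1 kb. The density of combined peaks on IV was 0.88 times that of the other 4 autosomes together, which did not pass a two-sided exact binomial test against span (adjusted p = 0.11 over 5 autosomes). Replicate 1 gave a ratio of 0.86 (adjusted exact binomial p = 0.082) and replicate 2 a ratio of 0.80, which passed (adjusted exact binomial p = 0.023). Chromosome V had a lower ratio than IV in every list, at 0.64 in the combined list, 0.64 in replicate 1 and 0.76 in replicate 2. No read counts come with the lists, and the depth of each library is unknown. All binomial and Fisher's exact tests here count peaks as independent, which is untrue of close neighbours, so their p-values are too small, and they cover counting error only.

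The left arm of chromosome IV held more LIN-53 sites than the right arm in every list. The arms and the centre were taken as equal parts of the span, each 5.82 Mb long, with the left arm ending at base 5820686 and the right arm beginning at 11641374. In the combined list 110 peaks lay on the left arm, 63 in the centre and 49 on the right arm, which is 18.9, 10.8 and 8.42 peaks per Mb. The left arm thus held 69.2% of the 159 arm peaks (95% Wilson interval 61.6% to 75.8%; two-sided exact binomial test against 50%, adjusted p = 4.41e-06 over 3 lists). Replicate 1 had 75 left-arm and 49 right-arm peaks, a left share of 60.5% (51.7% to 68.6%; adjusted exact binomial p = 0.024). Replicate 2 had 84 and 40, a left share of 67.7% (59.1% to 75.3%; adjusted exact binomial p = 0.00014). Both replicates leaned the same way, with the larger share in replicate 2. The lists share sites, with 83 of the 191 replicate 1 peaks overlapping replicate 2 and 164 overlapping the combined list. Tests of the 3 lists, here and between autosomes, are therefore not independent of each other.

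**Figure D1:**
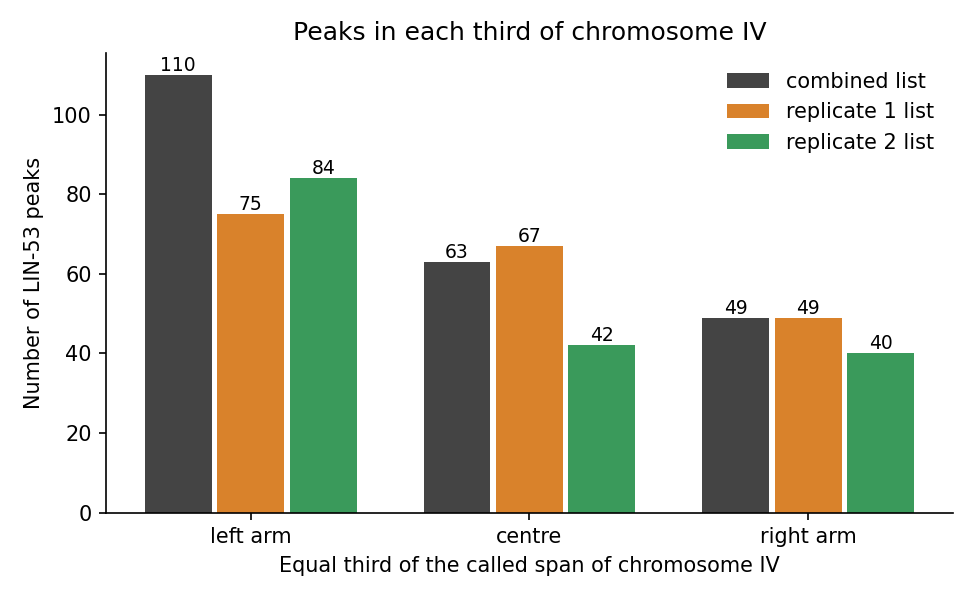
Number of LIN-53 peaks (vertical axis) in the left arm, centre and right arm of chromosome IV, taken as equal parts of the called span, in the combined list and in each replicate list. The left arm bar is the tallest in each list, with 110, 75 and 84 peaks.

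The left share of chromosome IV differed from that of the other autosomes. On these, 313 of 668 arm peaks of the combined list, or 46.9%, were on the left arm, against 69.2% on IV (two-sided Fisher's exact test, adjusted p = 1.99e-06 over 5 autosomes, each against the other 4). Chromosome I had a left share of 53.6%, V of 47.1%, II of 43.5% and III of 43.0%. II and III also passed the same test, toward the right arm (adjusted Fisher's exact p = 0.037 for each). The autosomes they were set against include IV, so this test cannot show an imbalance of their own arms. Their combined-list intervals include 50% (36.4% to 50.9% on II, 35.9% to 50.5% on III). In replicate 1 II passed (31.0% to 47.3%; adjusted Fisher's exact p = 0.018) and III did not (adjusted Fisher's exact p = 0.51). In replicate 2 III passed (33.3% to 49.6%; adjusted Fisher's exact p = 0.043) and II did not (adjusted Fisher's exact p = 0.72). IV was the only autosome that passed toward the left, in the combined list and in each replicate list. The difference of IV from the other autosomes passed within each replicate as well, with 60.5% against 46.7% in replicate 1 (adjusted Fisher's exact p = 0.018) and 67.7% against 47.2% in replicate 2 (adjusted Fisher's exact p = 0.00015). This comparison between autosomes was chosen after the counts on IV had been seen. Among combined peaks found in both replicates the left share on IV was 61.8%, with 34 of 55 arm peaks, which did not pass against 50% (adjusted exact binomial p = 0.14). In that subset the difference of IV from the other autosomes, 16.9 percentage points, did not pass either (adjusted Fisher's exact p = 0.069).

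**Figure D2:**
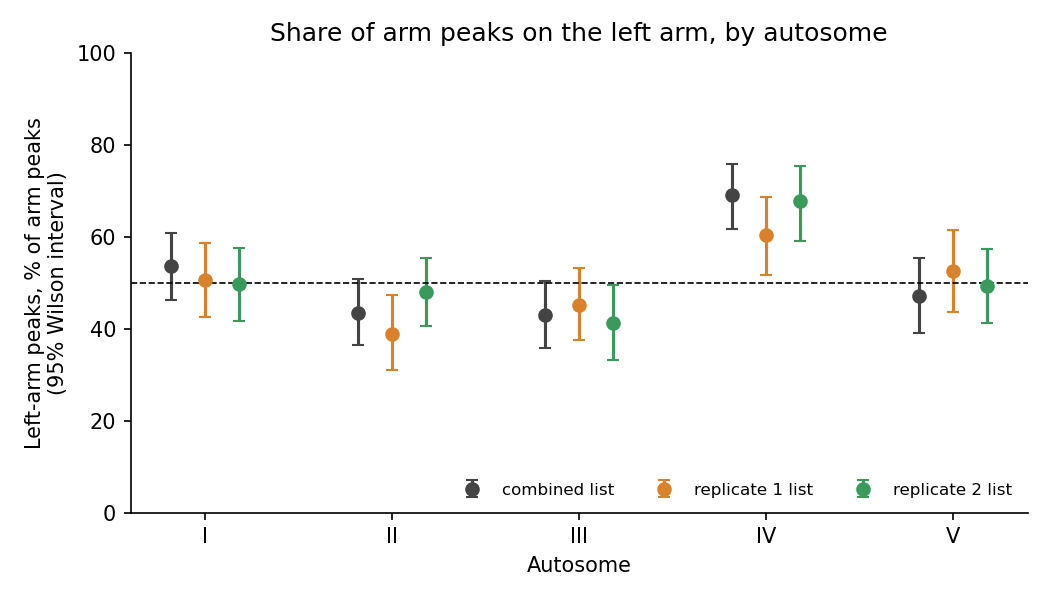
Left-arm peaks as a percentage of all arm peaks (vertical axis) on each of the 5 autosomes, with 95% Wilson intervals, for the combined list and each replicate list; the dashed line marks 50%. Chromosome IV lies at 69.2%, 60.5% and 67.7%, and its intervals are above the line in all 3 lists.

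The centre of chromosome IV carried 28.4% of the combined peaks (22.9% to 34.6%), against 33.3% of the span, a difference that did not pass (exact binomial test, adjusted p = 0.20 over 3 lists). The central share was 35.1% in replicate 1 (67 of 191; 28.7% to 42.1%) and 25.3% in replicate 2 (42 of 166; 19.3% to 32.4%), with adjusted exact binomial p = 0.65 and 0.096. The replicates themselves differed by 9.78 percentage points, just short of the threshold of 0.05 (two-sided Fisher's exact test, p = 0.051), and by 4.79 points with the central 50% of the span taken as the centre (Fisher's exact p = 0.40). The sites called in both replicates are the same DNA in each list, with 32.5% in the centre by the replicate 1 list and 33.3% by the replicate 2 list. Peaks called in a single replicate had central shares of 37.0% (40 of 108) in replicate 1 and 17.1% (14 of 82) in replicate 2 (Fisher's exact p = 0.0033). The peaks of replicate 2 alone were 50 on the left arm and 18 on the right, and those of replicate 1 alone were 41 and 27.

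The score is the only measurement the authors give for each peak; no source used here gives its unit, and it runs from 50.01 to a ceiling of 3100 over all lists. Combined peaks on IV had a median score of 173.9 (quartiles 88.8 and 452.9), against 180.5 on the other autosomes (87.8 and 482.4). Their median width was 1726 bp (1387 to 2266 bp), against 1758 bp. Of the 222 peaks, 23 scored at least 1000 and 68 (30.6%) scored under 100. Score and width were almost unrelated in the combined list, with Spearman's rho 0.10 over 221 peaks with a start, and rose together somewhat in replicate 1 (0.38 over 191 peaks) and replicate 2 (0.26 over 165 peaks). These are descriptions across peaks of 1 list.

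The right arm had the fewest sites in each list and the highest median score. The median combined score was 157.2 on the left arm (quartiles 85.4 and 368.8), 206.9 in the centre (89.2 and 502.0) and 285.5 on the right arm (111.1 and 868.2). Replicate 1 gave medians of 262.8, 184.5 and 333.6 in the same order, and replicate 2 gave 93.1, 116.2 and 131.9. The right arm had the highest median in all 3 lists, while the left arm was lowest in the combined list and in replicate 2 but not in replicate 1. The quartile ranges of the arms overlap in each list. Peaks scoring under 100 made up 34.5% of the combined peaks on the left arm, 31.7% in the centre and 20.4% on the right arm. In replicate 1 these shares were 21.3%, 19.4% and 20.4%, and in replicate 2 they were 54.8%, 47.6% and 37.5%, so replicate 1 showed little difference. Of the 23 peaks scoring at least 1000, 11 were on the left arm, 2 in the centre and 10 on the right arm. On the other autosomes the right arm did not have the highest median in the combined list. It was 167.5 on I, 209.2 on II, 164.0 on III and 137.7 on V. The central medians there were 236.8, 288.4, 247.6 and 195.6 in the same order. The replicate lists were not compared between autosomes in this way. No test was made of these scores.

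**Figure D3:**
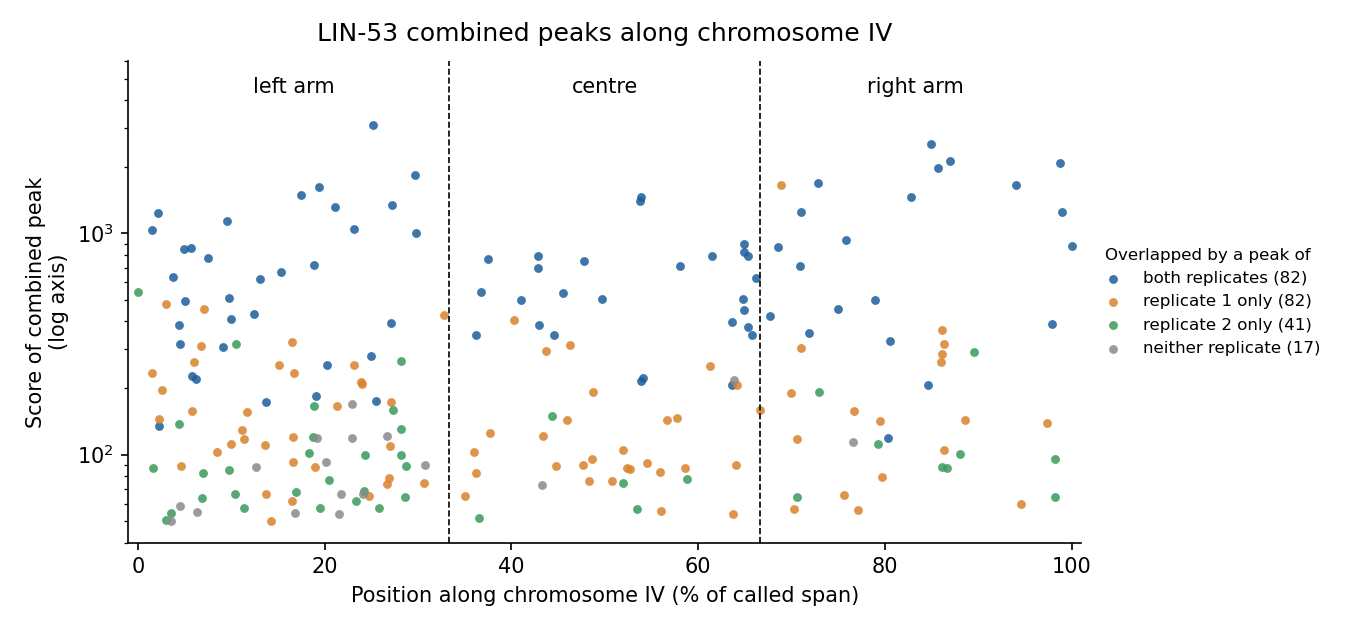
Score of each of the 222 combined peaks of chromosome IV (vertical axis, log scale) against its position as a percentage of the called span, coloured by the replicates that have an overlapping peak; dashed lines divide the arms from the centre. Peaks scoring under 100 number 38 of 110 on the left arm, 20 of 63 in the centre and 10 of 49 on the right arm. Peaks found in both replicates fill the upper part of the plot along the whole chromosome.

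The strongest site of chromosome IV lay on the left arm from 4388985 to 4391691, 2707 bp wide. It scored 3100 in the combined list, 3100 in replicate 1 and 1695 in replicate 2, and ranked first on IV in each list. Of the 10 highest-scoring combined peaks, 7 were on the right arm and 3 on the left, with none in the centre. The peak from 14822588 to 14825911 scored 2539 in the combined list, 2112 in replicate 1 and 1111 in replicate 2. The peak from 15188111 to 15190916 scored 2124, with 2240 in replicate 1 and only 209.8 in replicate 2. Near the right end, the peak from 17249271 to 17250876 scored 2081, with 2332 and 908.2 in the replicates. The replicates thus ranked these sites differently, and replicate 2 was lower at each of them.

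A narrow peak of 1182 bp from 14959096 to 14960277 scored 1979, with 2109 in replicate 1 and 397.2 in replicate 2. On the left arm, a peak of 1184 bp from 5183286 to 5184469 scored 1831, with 1852 and 440.6, and one from 3384437 to 3386365 scored 1619, with 1431 and 383.1. The remaining right-arm sites found in both replicates began at 12723027, scoring 1697 with 1607 and 574.1, and at 16414419, scoring 1662 with 1564 and 364.4. The ninth-ranked peak, from 12022008 to 12025706, was the exception among the 10. It scored 1655 and overlapped a replicate 1 peak of 2629, while replicate 2 had none within 59637 bp.

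In the centre the strongest sites were a pair of neighbours near the middle of the chromosome. The peak from 9403251 to 9404580 scored 1465, with 1382 in replicate 1 and 317.0 in replicate 2. The peak from 9385650 to 9386774 scored 1397, with 1527 and 386.4. The next strongest, from 11339339 to 11341103, scored 899.5, with 820.3 and 284.6. The first 2 of these rank 13 and 14 on the chromosome, and the last ranks 25.

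Support by the replicates was read from overlap of at least 1 bp. Of the 191 replicate 1 peaks on IV, 83 overlapped a replicate 2 peak (43.5%; 36.6% to 50.5%), and of the 166 replicate 2 peaks, 84 overlapped a replicate 1 peak (50.6%; 43.1% to 58.1%). Both counts describe the same overlap from each side. Among the 222 combined peaks, 82 overlapped a peak of both replicates (36.9%; 30.9% to 43.5%), against 37.7% of the whole combined list. A further 82 overlapped replicate 1 only (36.9%, against 34.1% of the whole list), 41 replicate 2 only (18.5%, against 18.9%) and 17 neither (7.66%, against 9.34%). The share found in both was 2.28 percentage points below that of the other autosomes, 39.2%, and this did not pass (two-sided Fisher's exact test, adjusted p = 0.66 over 5 autosomes). Support on IV was thus close to the share over all chromosomes in each class.

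Peaks with high scores were found in both replicates far more often than peaks with low scores. How the combined list was made is not known here, so its score and its support may not be independent. None of the 56 combined peaks in the lowest score quartile of IV was found in both replicates, 3 of 55 in the second, 27 of 55 in the third and 52 of 56 (92.9%; 83.0% to 97.2%) in the highest. No peak found in both scored below 119.3, a level under which 83 combined peaks lay, and no peak found in neither scored above 218.4. Above that score stood 98 peaks, of which 74 were found in both, 20 in replicate 1 only and 4 in replicate 2 only. In replicate 1, 43 of 48 peaks of the highest quartile (89.6%; 77.8% to 95.5%) and 6 of 48 of the lowest (12.5%; 5.86% to 24.7%) were shared. In replicate 2 the shares from the lowest quartile to the highest were 28.6%, 48.8%, 63.4% and 61.9%, with overlapping intervals in the upper quartiles (48.1% to 76.4% and 46.8% to 75.0%).

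The combined score had a median of 632.3 for peaks found in both replicates, 122.9 for replicate 1 only, 86.8 for replicate 2 only and 88.1 for neither. Peaks found in neither had the highest median width, 2296 bp, against 1852 bp for both, 1550 bp for replicate 1 only and 1958 bp for replicate 2 only. The combined score was at or above both replicate scores at 42 of the 82 peaks found in both, lay between them at 40, and was below both at none. At 58 of the 82, the combined peak was wider than the joint reach of the replicate peaks under it.

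The support classes were spread unevenly over the chromosome. The left arm, with 49.5% of all combined peaks on IV, held 14 of the 17 found in neither replicate (82.4%) and 27 of the 41 found in replicate 2 only (65.9%). It held 34 of the 82 found in both (41.5%) and 35 of the 82 found in replicate 1 only (42.7%). Of the 110 left-arm peaks, 30.9% were found in both replicates (23.04% to 40.1%), and of the 49 right-arm peaks, 42.9% (30.02% to 56.7%). The centre had 42.9% of its 63 peaks in both (31.4% to 55.1%) and only 5 in replicate 2 only and 2 in neither. The intervals of the arms overlap, and no test of the difference was made.

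Scores of the replicates could be set side by side at 82 sites that overlapped one to one. The median score there was 630.0 in replicate 1 and 146.5 in replicate 2, and 76 of them (92.7%) had the higher score in replicate 1. The median log2 ratio of replicate 1 to replicate 2 was 1.95, with quartiles of 1.27 and 2.41 and extremes of -2.17 and 3.92. A score may rise with the depth of a library as well as with enrichment, and their parts in this ratio cannot be told apart. Its median was 1.96 on the left arm (34 sites), 2.03 in the centre (26) and 1.75 on the right arm (22). Scores rose together over the 82 sites, with Spearman's rho 0.66, a description across peaks of the same pair of libraries. The midpoints lay a median of 59.8 bp apart, and within 200 bp at 56 sites.

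**Figure D4:**
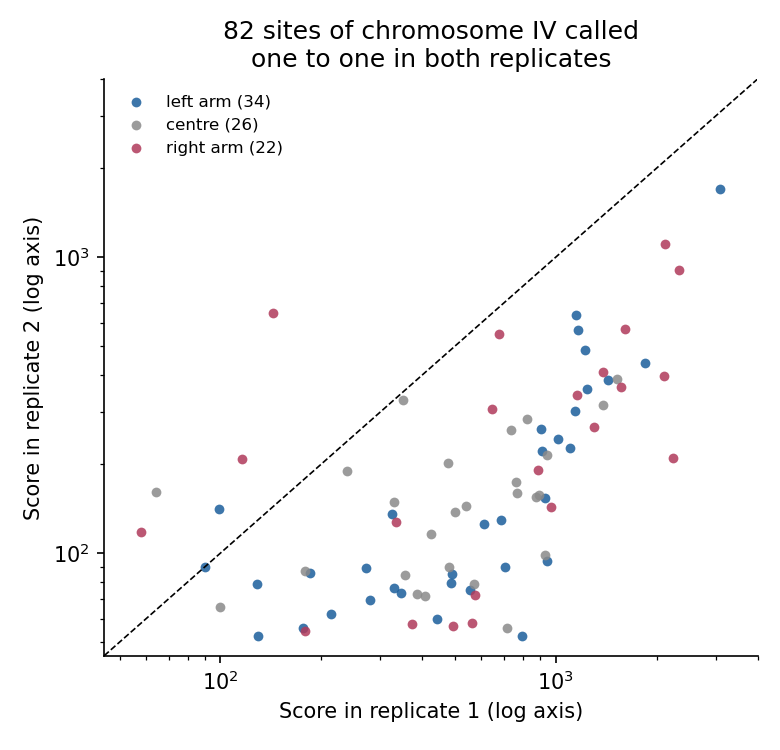
Score in replicate 2 (vertical axis) against score in replicate 1 (horizontal axis), both on log scales, for the 82 sites of chromosome IV that overlapped one to one, coloured by arm or centre; the dashed line marks equal scores. Points lie below the line at 76 sites, and 6 lie above it.

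The 6 sites that scored higher in replicate 2 were mostly weak in replicate 1. The largest reversal was on the right arm at a site 4106 bp wide in replicate 1, from 12315806 to 12319911. It scored 143.7 in replicate 1 and 646.0 in replicate 2. It was also the single replicate 1 peak on IV that overlapped replicate 2 and no combined peak. The other 5 had replicate 1 scores from 58.06 to 116.2 and replicate 2 scores from 90.00 to 208.3. This group was picked after its values were seen.

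Each replicate also had strong sites of its own. In replicate 1, after the site at 12022040 described above, the peak from 15078444 to 15082434 scored 848.1 and that from 7039106 to 7041345 scored 807.8, with combined scores of 315.8 and 407.3. The peak from 13929489 to 13933452 scored 716.1 and had no combined peak, and replicate 2 had none within 18943 bp. The peak from 519017 to 520142 scored 640.1, with a combined score of 480.8. Under the combined peak from 1239315 to 1240497, which scored 453.0, replicate 1 had a peak of 602.7 and replicate 2 none. Replicate 1 contained 27 peaks on IV that the combined list lacked, with a median score of 79.6.

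In replicate 2, the second-ranked peak of the chromosome, from 1830653 to 1832110, scored 1240, with a combined score of 317.6 and no replicate 1 peak within 84308 bp. The peak from 9065780 to 9067916 scored 800.8, yet its combined score was 74.5. The peak from 12730078 to 12732997 scored 795.0, with a combined score of 192.4, and lay 4508 bp from a replicate 1 peak. The peak at the left tip ended at base 629 and had no start in the file; it scored 741.2, with a combined score of 543.0, and replicate 1 had no peak before 125822. The peak from 15635775 to 15637244 scored 559.7, with a combined score of 292.4. Replicate 2 contained 42 peaks on IV that the combined list lacked, 23 of them on the left arm, with a median score of 66.0 and a highest of 646.0. The site at 12315795 is that highest one.

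At the right end every list had the same last site. The last combined peak ran from 17460876 to 17462060 and scored 881.2, with 886.7 in replicate 1 and 191.5 in replicate 2. At the left tip the combined peak ended at base 630, and only replicate 2 overlapped it.

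Along the chromosome the combined list held 3 to 27 peaks in the 17 full windows of 1 Mb, with a median of 11. Replicate 1 held 4 to 17 (median 10) and replicate 2 held 4 to 23 (median 6). The first 5 windows, which make up most of the left arm, held 21, 22, 17, 17 and 27 combined peaks, and the sixth held 6. The fullest window begins at 4000001. It contained the strongest site of the chromosome, yet its median combined score was 130.7. Its 27 peaks were 6 found in both replicates, 8 in replicate 1 only, 9 in replicate 2 only and 4 in neither. Without it, 83 of 132 arm peaks were on the left, 62.9% (adjusted exact binomial p = 0.012).

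The replicates took different shares of neighbouring windows. The third window, from 2000001, held 16 replicate 1 peaks and 8 of replicate 2, while the fourth held 8 and 18. In the fourth window and the one after it, 7 of 18 and 8 of 23 replicate 2 peaks had no combined peak. By contrast, the twelfth window, from 11000001, held 17 combined peaks of which 12 were found in both, with a median score of 397.5. The fifteenth, from 14000001, held 6, all found in both, with the highest window median among full windows, 897.3. These windows were picked after their values were seen.

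**Figure D5:**
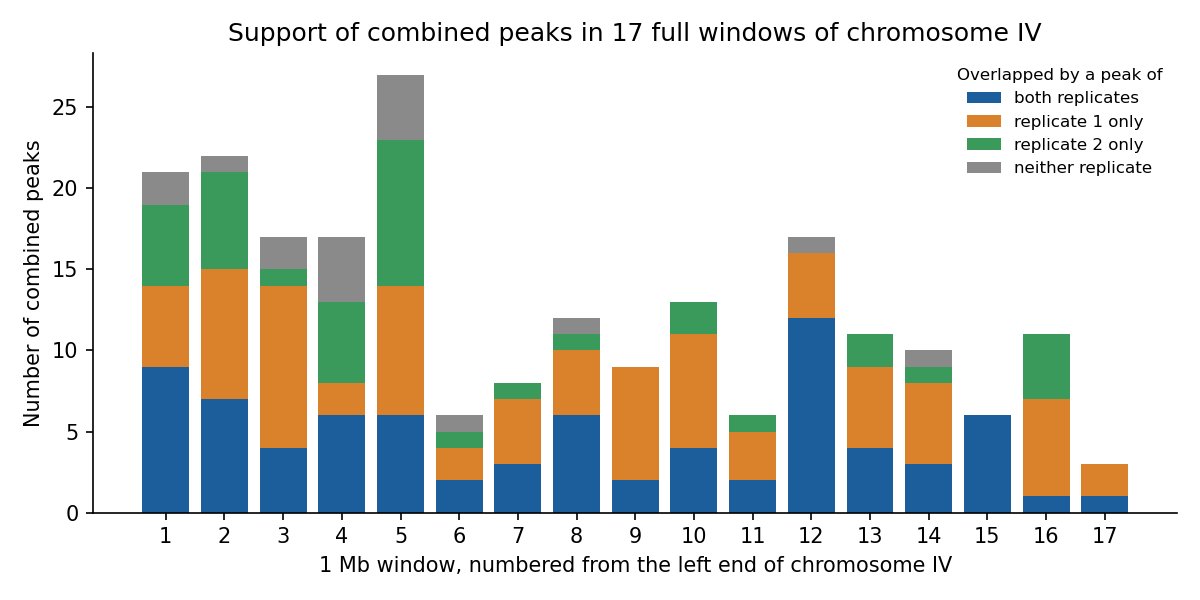
Number of combined peaks (vertical axis) in each of the 17 full 1 Mb windows of chromosome IV, numbered from the left end, stacked by the replicates that have an overlapping peak. Window 5 is the fullest with 27 peaks, of which 6 were found in both replicates, and window 12 has 17, of which 12 were found in both.

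The peaks were unevenly spaced. Neighbouring combined peaks were a median of 41371 bp apart, with quartiles of 12673 and 102649 bp. The median gap was 24993 bp within the left arm, 51997 bp within the centre and 58940 bp within the right arm. The longest stretch with no combined peak ran for 777.1 kb on the right arm, from 15637286 to 16414418. Within it replicate 1 had 3 peaks scoring 60.8 to 86.5 and replicate 2 had 3 scoring 59.5 to 69.8. The strong site that begins at 16414419 closes this stretch.

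Peaks with fewer than 10 kb between them were counted as a close group. There were 37 groups with more than 1 peak, which held 84 of the 222 combined peaks (37.8%), and 9 of them had at least 3 peaks. Of these 9, 7 were on the left arm, 1 in the centre and 1 on the right arm. The left arm held 49.5% of the combined peaks, and the part of its peak density in this count was not tested. The replicate 1 list had 5 groups of at least 3 peaks and the replicate 2 list had 3. The largest had 4 peaks over 21280 bp from 2881374 to 2902653, scoring 61.9 to 322.1, and all 4 were found in replicate 1 only. A group of 3 from 384733 to 395998 had the highest summed score of the others, 1514, led by a peak of 1235, and 2 of its peaks were found in both replicates. The group from 3282819 to 3301492 summed to 1003, with 1 replicate 1 peak and 3 replicate 2 peaks. On the right arm, the group from 15036552 to 15044204 summed to 738.1, with 2 peaks in replicate 1 only and 1 in replicate 2 only. The group from 4720172 to 4728594 summed to 675.6, with 1 peak found in both and 2 in replicate 1 only.

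Outside these 5, a group of 3 peaks from 4921268 to 4927282 was found in replicate 2 only. Its peaks were 1453, 1424 and 1433 bp wide with gaps of 827 and 878 bp, and scored 337.2, 312.2 and 375.4 in replicate 2. Replicate 1 had no peak there. Close groups could thus belong to 1 replicate alone, as at 2881374 for replicate 1 and here for replicate 2. This group was chosen after its values were seen.

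Of the 13 pairs of neighbouring combined peaks with less than 1 kb between them, 3 had both members found in both replicates, and these 3 were in the centre. They were also the closest of the 13. The peaks from 7485600 to 7487246 and from 7487268 to 7488947 were 21 bp apart and scored 786.7 and 698.0. The peaks from 11337490 to 11339166 and from 11339339 to 11341103 were 172 bp apart and scored 452.7 and 899.5. The peaks from 11323765 to 11325460 and from 11325671 to 11327316 were 210 bp apart and scored 503.4 and 828.4. The 6 peaks had widths of 1646 to 1765 bp, close to the median of the chromosome. The last 2 of these doublets are part of the longest run of neighbouring combined peaks found in both replicates, 8 peaks over 243.1 kb from 11323765 to 11566878, with scores of 346.9 to 899.5. These doublets and the run were picked after their values were seen.

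Peak width on IV ranged from 1053 to 5139 bp in the combined list. The widest peak, from 4008411 to 4013549, scored 169.0 and overlapped no peak of either replicate, with the nearest 27845 bp away in replicate 1. The next, 4470 bp from 3047858 to 3052327, scored 1499, with 1147 in replicate 1 and 637.2 in replicate 2. The third spanned 4215 bp from 7505340 to 7509554 and scored 384.8, with 329.1 and 148.4. The 3 narrowest, 1053 to 1061 bp wide, began at 2952770, 9777176 and 13205517, scored 67.6, 55.5 and 65.4, and were each found in 1 replicate. The widest peaks therefore included both a site with no replicate support and 2 with support in both lists. Of the peaks found in neither replicate, the highest-scoring was in the centre from 11147561 to 11150194, with 218.4, and the next after the widest peak was on the left arm from 4657115 to 4658974, with 121.6.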

How the data were processed

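LIN-53 was mapped by ChIP-seq in 2 samples of wild-type late embryos, with 2 input samples beside them. The authors deposited 3 peak lists, a list of each ChIP sample and a combined one, with a score per peak as the only measurement. Per the file headers, positions are on WormBase WS220 after a lift from another build. In the combined list 0 peaks on chromosome IV are marked as altered by it. Reads were aligned with BWA, per the submitters' processing notes. The source column names MA2C and the peak names MACS, so the caller, its threshold and its use of input are not settled by the files.

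Rows with IV in the first column were kept without filter, and a dot in place of a start was read as base 1, with that peak left out of widths. Depth is unknown, so scores were ranked within lists; scores set against each other between replicates depend on unknown depths and were not tested. How the authors made the combined list is not known here. Overlap was at least 1 bp, close groups had gaps under 10 kb, and arms and centre, by peak midpoint, were equal parts of the span. Tests were two-sided exact binomial and Fisher's exact tests with Benjamini-Hochberg adjustment, and intervals are 95% Wilson intervals that cover counting error only. The overlap, position and group steps were tested on simulated data. Regions named are the 10 highest-scoring combined peaks, the 3 highest of each support class and of each arm or centre, the 5 highest peaks called in a single replicate, for each replicate, the 3 widest and narrowest, the end peaks, the 5 largest groups and the longest gap; others are said to be picked later. The members and rules were chosen with earlier results of these data known. Alternatives were other overlap rules, a central 50%, above-median scores, merged close peaks, other gaps and each replicate list alone. Python 3.11.15 was used with pandas 2.3.3, numpy 2.4.6, matplotlib 3.10.9 and scipy 1.17.1.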

Additional observations from a re-analysis of the deposited data

Results flagged for a closer look

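The left arm's share of arm peaks on chromosome IV was 22.3 percentage points above that of the other autosomes in the combined list (69.2% against 46.9%), and the test of this difference passed (two-sided Fisher's exact test, adjusted p = 1.99e-06 over 5 autosomes). It was 13.8 points in replicate 1 and 20.6 points in replicate 2, in the same direction. The left arm held 49.5% of all combined peaks on IV, 65.9% of those found in replicate 2 only, 82.4% of those found in neither and 42.7% of those found in replicate 1 only. The part of these classes in the difference was not tested beyond the subsets given below.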

How the results depend on the processing

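Among 45 alternative values, 29 held, 3 lost their call, 3 gained one, 9 moved and 1 reversed. Held means the same direction and same side of the threshold, within counting error, or, for group counts, a limited fold change. The left-arm share lost its call among above-median scores (62.3%, adjusted exact binomial p = 0.12) and among peaks found in both replicates (61.8%). Both subsets had fewer peaks and a smaller share than the full list (69.2%), and which of these lost the call was not tested. Other values of the left-arm share ranged from 60.5% to 71.8%. Its difference from the other autosomes was 16.9 points among peaks found in both replicates (adjusted Fisher's exact p = 0.069), and passed otherwise, from 13.8 to 25.1 points; these settings, and leaving out the fullest window (16.02 points), were chosen after seeing the data. The central share reversed in the replicate 1 list alone (35.1%); it passed in no list. The density ratio gained a call in the replicate 2 list alone (0.80). The replicates' difference in central share gained one with close peaks counted as 1 (11.4 points, Fisher's exact p = 0.032) and among peaks the other replicate lacks (20.0 points, Fisher's exact p = 0.0033), and fell to 4.79 points with a central 50% (Fisher's exact p = 0.40); the cause was not tested. With midpoints within 200 bp, 29.3% of replicate 1 peaks, 33.7% of replicate 2 peaks and 21.2% of combined peaks (in both) counted as shared, since that rule is stricter; among above-median combined peaks 71.2% were found in both. The median width was 1372 bp in the replicate 1 list alone and 1522 bp in the replicate 2 list alone. Leaving out combined peaks altered by the lift was not run, since 0 such peaks are on IV. Groups of at least 3 numbered 9 with gaps under 10 kb, 6 with gaps under 5 kb, which counted as held, and 16 with gaps under 20 kb. They numbered 5 and 3 in the replicate 1 and replicate 2 lists alone. No paired analysis was possible because no peak list of an input sample was used. The labels do not say whether ChIP and input samples with the same replicate number are matched. No combined list could be remade without a replicate. Without read counts, how depth limits the calls cannot be given.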
